A study of Mus musculus with 6 samples.

Results

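The nuclear genes of mitochondrial complex I that carry a symbol beginning with Nduf were followed in forskolin-treated and untreated NIH3T3 mouse fibroblasts. Members were chosen by symbol alone, as every probe set paired with exactly 1 gene symbol of that kind. This gave 45 probe sets of 41 genes, among 18197 probe sets of 16797 genes tested, and 4 of the genes (Ndufs3, Ndufa11, Ndufab1 and Ndufb11) had 2 probe sets each. Every one of the 45 symbols was found under its Entrez identifier in a current RefSeq table of mouse genes. Genes not analysed here, because no probe set was paired with them alone, included Ndufb1, Ndufb2, Ndufb4, Ndufaf1, Ndufaf8 and the 7 subunits encoded by mitochondrial DNA.

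Total RNA was measured on 6 Affymetrix arrays, 3 per group. The NF arrays were of Normal cells (NIH3T3, an immortalized mouse fibroblast line) that received forskolin (FSK), which switches on adenylate cyclase and, through cAMP, protein kinase A (PKA), at 10 μM after 24 h and again after 48 h of growth in low glucose. The N arrays were of the same line without FSK, labelled as no FSK, and the study's scheme for these cultures names DMSO as the vehicle. Both groups were plated in 25 mM glucose, moved to 1 mM glucose after 16 h and harvested after a further 72 h, so NF and N share the low starting glucose. The paper reports that the medium had lost all its glucose by this harvest, with or without FSK. Both groups come from 1 cell line, and their 3 arrays each are named as biological replicates. Values are on the log2 scale, on which a difference of 1 is a 2-fold difference, and each log2 change is NF minus N.

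Complex I, the NADH:ubiquinone oxidoreductase of the inner mitochondrial membrane, takes electrons from NADH, hands them along a flavin and a chain of iron-sulfur clusters to ubiquinone and pumps protons as it does so. Core subunits, conserved from bacteria, carry the catalysis: the N module oxidizes NADH, the Q module reduces ubiquinone, and the membrane arm, with a proximal and a distal part, moves the protons. Accessory subunits surround this core, and assembly factors help to build the enzyme but are absent from its finished form.

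The arrays were first compared with each other, because N replicate 1 stood apart. Its values had an SD of 2.42 over all probe sets, against 2.58 to 2.62 in the other 5 arrays, and among probe sets of moderate level (means of 5 to 8) its median was 0.49 below the other N arrays. For the members it was the lowest or the highest of the 6 arrays in 34 of 45 probe sets (75.6%), against 59.4% of all probe sets tested, so values without it stand beside those with all arrays. Of the fibroblast markers, 10 of 12 were measured, with array means of 8.30 to 8.53 in NF and 7.86 to 8.32 in N and with 2 of the 10 dim, that is below 3.90, the median level of the whole deposited table of 22035 probe sets. Markers of epithelial cells (5 of 5 measured), leukocytes (3 of 5), endothelial cells (3 of 3) and adipocytes (2 of 3) were all dim, with array means no higher than 3.17, 3.19, 2.78 and 2.98 in NF, against 3.40, 3.24, 3.13 and 2.60 in N. Among the fibroblast markers, 1 of 10 passed the test, Col3a1, a fibrillar collagen, with a log2 change of 1.33 (limma, adjusted p = 0.0157), and 1.28 without N replicate 1. That call was lost with the replicate block, with the methods' t-test and without NF replicate 1, NF replicate 3 or N replicate 3. Its part in any result was not tested. As in any bulk RNA, fewer cells of a type and less RNA per cell cannot be told apart.

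Complex I transcripts differed little between FSK-treated and untreated Normal cells. The members' signals were mostly well measured: 42 of 45 probe sets (93.3%) were not dim, against 48.3% of the 18197 probe sets tested, and the exceptions were Ndufaf5, Ndufaf6 and Ndufa4l2. In the limma fit with Benjamini-Hochberg adjustment over all 18197 probe sets, 0 of 45 member probe sets passed an adjusted p of 0.05, 0 with NF above N and 0 with NF below N, while 446 of all probe sets (2.45%) did, 320 (1.76%) higher and 126 (0.692%) lower in NF. The lowest adjusted p of a member was 0.283, for Ndufb11. At an unadjusted p under 0.05 there were 3 members (Ndufb11, Ndufa7 and Ndufaf7), or 6.67%, against 13.4% of all probe sets. With the methods' t-test, 0 members passed after adjustment and 6 before it, and the share of all probe sets was not counted for that test.

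The changes were also small in size. They ran from 1.36-fold lower in NF for Ndufaf4 to 1.39-fold higher in NF for Ndufv3. The 95% interval of the change lay within 2-fold in both directions for 43 of 45 member probe sets (95.6%), against 87.7% of all probe sets, and within 1.5-fold for 27 (60.0%), against 57.6%. The exceptions at 2-fold were Ndufv3, whose interval reached 1.02, and Ndufaf4, whose interval reached -1.03. Among probe sets that were not dim, 0 of 42 members passed the test (5.85% of all 8791) and 40 of 42 (95.2%) had an interval within 2-fold, against 74.9%. Of the members, 10 of 45 (22.2%) had groups that did not overlap, 7 with all NF arrays above all N arrays and 3 below, against 19.7% of all probe sets.

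**Figure D1:**
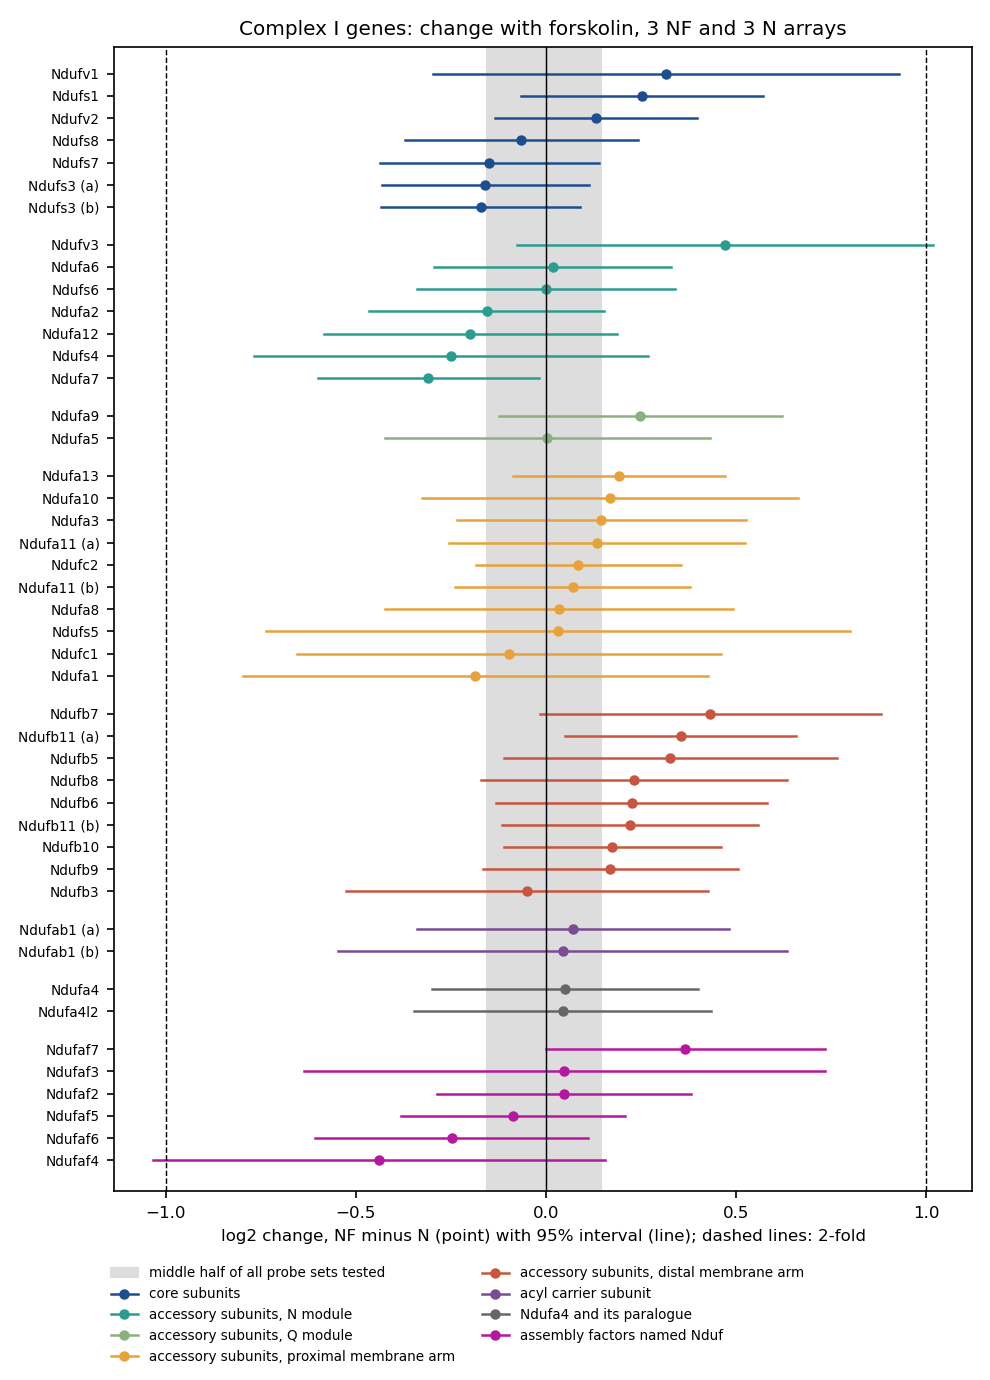
Each row is a member probe set, with its log2 change (NF minus N, point) and 95% interval (line) from the limma fit of 3 NF and 3 N arrays, coloured by role, where a and b mark the higher and lower change of a gene with 2 probe sets. The grey band holds the central part of all 18197 probe sets, from -0.15 to 0.15, the dashed lines mark 2-fold, and 43 of the 45 intervals stay between them.

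As a group the members lay close to all other probe sets. Their median log2 change was 0.05, with quartiles of -0.09 and 0.19, and that of all probe sets tested was -0.02, with quartiles of -0.15 and 0.15, and without N replicate 1 the medians were 0.07 and -0.02. The change was above 0 for 31 of 45 members (68.9%), against 45.3% of all probe sets. Among probe sets that were not dim, the order of the medians was reversed, 0.06 for 42 members and 0.08 for all 8791. There the change was above 0 for 30 of 42 members (71.4%), against 59.4% of all 8791. The split of 31 above and 14 below 0 became 24 and 21 after a further quantile normalization (53.3% above 0, against 49.99% of all probe sets) and 26 and 19 after each array was centred on its median (57.8%, against 38.3%).

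Because PKA acts on transcription through CREB, which binds the cAMP response element, the promoters of the members were searched for its letters. RefSeq promoters of 300 bases (mouse build GRCm38.p6, from 250 bases before to 50 after the start) were matched for 36 of the 41 genes. These genes had 38 promoters, and a gene counted when any of its promoters held a motif. The shares given for all promoters are of single promoters and not of genes. TGACGTCA, searched on both strands like the other motifs, stood in the promoters of 2 of the 36 genes (5.56%), against 1.79% of all 32851 promoters. Its shorter part TGACG, which overlaps every TGACGTCA, stood in 15 (41.7%), against 20.8%. The median GC content was 59.2% for the members' promoters and 52.7% for all. A match is a description of the letters in this window and not of binding. Both windows with TGACGTCA are shown first, then those of Ndufb11, the member with the lowest p, and of Ndufaf4, the member with the most negative change, with the motif in capitals, read 5′ to 3′ on the strand of the gene.
Ndufa10, chr1:92473796-92473847, minus strand, TGACGTCA: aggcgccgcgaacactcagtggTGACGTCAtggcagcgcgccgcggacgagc
Ndufa11, chr17:56717582-56717633, plus strand, TGACGTCA: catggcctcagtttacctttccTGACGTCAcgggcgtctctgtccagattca
Ndufb11, chrX:20617731-20617779, minus strand, TGACG: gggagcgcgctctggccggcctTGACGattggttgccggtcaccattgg
Ndufaf4, chr4:24897948-24897999, plus strand, GCGCATGC: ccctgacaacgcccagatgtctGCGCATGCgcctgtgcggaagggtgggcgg

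The motifs lay 67 to 60 bases before the start in Ndufa10, 158 to 151 in Ndufa11, 138 to 134 in Ndufb11 and 113 to 106 in Ndufaf4. GCGCATGC, the core of the motif of NRF-1, a factor known for nuclear genes of the respiratory chain, stood in 5 of 36 genes (13.9%), against 2.71% of all promoters. These were Ndufa6, Ndufa8, Ndufa11, Ndufaf4 and Ndufaf5. CCGGAAG, an ETS motif that GABP binds, stood in 4 (11.1%), against 8.86%, and TGACCTTG, the ERR motif, in 1, Ndufs5 (2.78%), against 1.56%. Both genes with TGACGTCA showed small changes, 0.17 for Ndufa10 and 0.14 and 0.07 for the probe sets of Ndufa11, with adjusted p of 0.808, 0.804 and 0.877 in limma. The median change was 0.15 for the 2 genes with TGACGTCA and 0.05 for those without it, and 0.14 for the 15 genes with TGACG and 0.03 for those without. Without N replicate 1 the medians were -0.05 with TGACGTCA and 0.09 without it, and 0.09 with and 0.09 without TGACG, so the order of the first pair rested on that array. The change was then -0.08 for Ndufa10. No test was made of these medians, which rest on the same 6 arrays.

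The core subunits were measured by 7 probe sets of 6 genes. Their changes ran from -0.17 to 0.32 with a median of -0.06 (-0.08 without N replicate 1), 3 above and 4 below 0, and 0 passed the test. Ndufs1, the largest subunit of the electron-carrying arm and a holder of iron-sulfur clusters, measured 7.71, 7.55 and 7.69 in NF, against 7.19, 7.49 and 7.51 in N. All NF arrays were above all N arrays, by little over N replicates 2 and 3, and the log2 change was 0.25 ± 0.14 (SE, n = 3 each, limma adjusted p = 0.509), and 0.15 without N replicate 1. Ndufv1, which binds the flavin and NADH, measured 8.99, 8.83 and 8.87 in NF, against 7.95, 8.71 and 9.09 in N. The NF arrays lay between N replicates 2 and 3, and N replicate 1 was far below every other array. Its change was 0.32 ± 0.27 (SE, adjusted p = 0.693 in limma) with all arrays and -0.0020 without N replicate 1.

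Ndufs3, a subunit of the Q module, had a small spread between replicates, and its 2 probe sets gave nearly the same change. The first measured 8.75, 8.71 and 8.74 in NF, against 8.93, 8.90 and 8.89 in N, and the second 8.56, 8.53 and 8.48 in NF, against 8.75, 8.60 and 8.70 in N. The groups did not overlap on either probe set, and NF was the lower group on both. The log2 changes were -0.17 ± 0.11 and -0.16 ± 0.12 (SE, limma adjusted p = 0.593 and 0.644), or -0.16 and -0.13 without N replicate 1. Of the other core subunits, Ndufv2, an iron-sulfur protein of the N module, had a change of 0.13 with all NF arrays above all N arrays. Ndufs7 and Ndufs8, which carry the clusters closest to ubiquinone, had changes of -0.15 and -0.06 with overlapping groups. The adjusted p of these 3 was 0.699, 0.693 and 0.887 in limma, and their changes without N replicate 1 were 0.10, -0.21 and -0.08.

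The accessory subunits of the N module, with 7 of 7 genes measured, spanned both directions. Their median change was -0.16, or -0.04 without N replicate 1, with 3 of 7 above 0 in both cases, and 0 passed the test. Ndufa7 measured 8.32, 8.38 and 8.27 in NF, against 8.61, 8.77 and 8.52 in N. Every NF array was below every N array, and N replicate 1 lay between the other N arrays. The change was -0.31 ± 0.13 (SE, limma adjusted p = 0.338), a 1.24-fold lower mean in NF, and -0.32 without N replicate 1 (adjusted p = 0.249). Ndufv3, a small subunit bound to the NADH-oxidizing end, measured 7.27, 7.33 and 7.38 in NF, against 6.40, 7.40 and 6.75 in N. The NF arrays were close together, while N spread over a full log2 unit, with N replicate 2 above all NF arrays. The change was 0.47 ± 0.24 (SE, adjusted p = 0.460 in limma), 0.25 without N replicate 1, and 0.75 without N replicate 2, with an adjusted p of 0.082.

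Ndufs4, a subunit that holds the N module in place and whose loss in mice is a model of complex I deficiency, measured 8.22, 8.53 and 8.49 in NF, against 9.17, 8.50 and 8.32 in N. Only N replicate 1 was above the NF range. The change was -0.25 ± 0.23 (SE, limma adjusted p = 0.714) with all arrays and 0.0037 without N replicate 1. The changes of the other 4 were -0.20 for Ndufa12, -0.16 for Ndufa2, 0.02 for Ndufa6, a protein that binds the acyl carrier Ndufab1, and under 0.01 for Ndufs6, with overlapping groups in each. Without N replicate 1 they were -0.06, -0.11, -0.04 and 0.10. The adjusted p of these 4 lay between 0.692 and 1.00 in limma.

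In the Q module and the proximal membrane arm, every measured accessory subunit had overlapping groups except Ndufa13. Ndufa9, which lies beside the ubiquinone pocket, had a change of 0.25 (limma adjusted p = 0.588), and 0.10 without N replicate 1. Ndufa5, the other Q module member, had a change under 0.01, and 0.16 without N replicate 1. The proximal arm was covered by 10 probe sets of 9 of 9 genes, with changes between -0.19 and 0.19, a median of 0.08 (0.08 also without N replicate 1) and 8 above 0. Ndufa13, also known as GRIM-19, measured 7.44, 7.33 and 7.38 in NF, against 7.30, 7.15 and 7.13 in N. All NF arrays were above all N arrays, and N replicate 1 came close to the lowest NF array. Its change was 0.19 ± 0.12 (SE, limma adjusted p = 0.574), and 0.24 without N replicate 1. Both probe sets of Ndufa11, a membrane protein where the arms meet, were near 0 without that array (-0.01 and 0.00). The member probe set of Ndufs5, a subunit on the intermembrane side, varied most among the untreated arrays. It measured 4.10, 4.39 and 4.63 in NF, against 4.42, 5.02 and 3.58 in N, so that N replicates 2 and 3 lay on both sides of the NF range. Its change of 0.03 had an interval of -0.74 to 0.80 and was 0.07 without N replicate 1. A brighter probe set, shared with the pseudogene Ndufs5-ps and so no member, did not vary in this way, at 6.91, 6.87 and 6.84 in N.

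The accessory subunits of the distal membrane arm had the most positive median of the subunit groups. Of 11 genes 8 were measured, by 9 probe sets, with a median change of 0.23, of which 8 of 9 were above 0 (the exception was Ndufb3, at -0.05) and 0 passed the test. Among all probe sets that were not dim, as these were, 59.4% were above 0 and the median was 0.08. Without N replicate 1 the median was 0.15 and 9 of 9 were above 0. Of all probe sets tested, dim ones included, 45.2% were, and no share without the dim ones was counted for that fit. After quantile normalization the median over the 8 genes was 0.14, against 0.23 before it. Ndufb11, a membrane-spanning subunit encoded on the X chromosome, measured 9.25, 9.46 and 9.54 in NF, against 8.98, 9.07 and 9.14 in N. All NF arrays were above all N arrays. The change was 0.35 ± 0.13 (SE, limma adjusted p = 0.283), a 1.28-fold higher mean in NF, and 0.31 without N replicate 1 (adjusted p = 0.276). Its second probe set measured 7.46, 7.57 and 7.71 in NF, against 7.55, 7.16 and 7.36 in N. Here N replicate 1 lay inside the NF range, and the change was 0.22 ± 0.15 (SE, limma adjusted p = 0.594) with it and 0.32 without it.

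Ndufb7, a subunit of the intermembrane space side, measured 7.73, 7.40 and 7.70 in NF, against 6.78, 7.39 and 7.36 in N. The groups did not overlap, but NF replicate 2 lay only just above N replicate 2, and N replicate 1 was the lowest array by far. The change was 0.43 ± 0.19 (SE, limma adjusted p = 0.394), and 0.23 without N replicate 1 (adjusted p = 0.487). Ndufb5 measured 8.91, 9.01 and 9.31 in NF, against 8.43, 9.06 and 8.76 in N. N replicate 2 stood above 2 of the NF arrays, and the change of 0.33 ± 0.19 (SE, adjusted p = 0.535 in limma) was 0.17 without N replicate 1. Ndufb10, which like Ndufb7 faces the intermembrane space, had a change of 0.17 (0.14 without N replicate 1) with all NF arrays above all N arrays. Ndufb6, Ndufb8 and Ndufb9, with overlapping groups, had changes of 0.23, 0.23 and 0.17, or 0.09, 0.06 and 0.08 without N replicate 1.

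**Figure D2:**
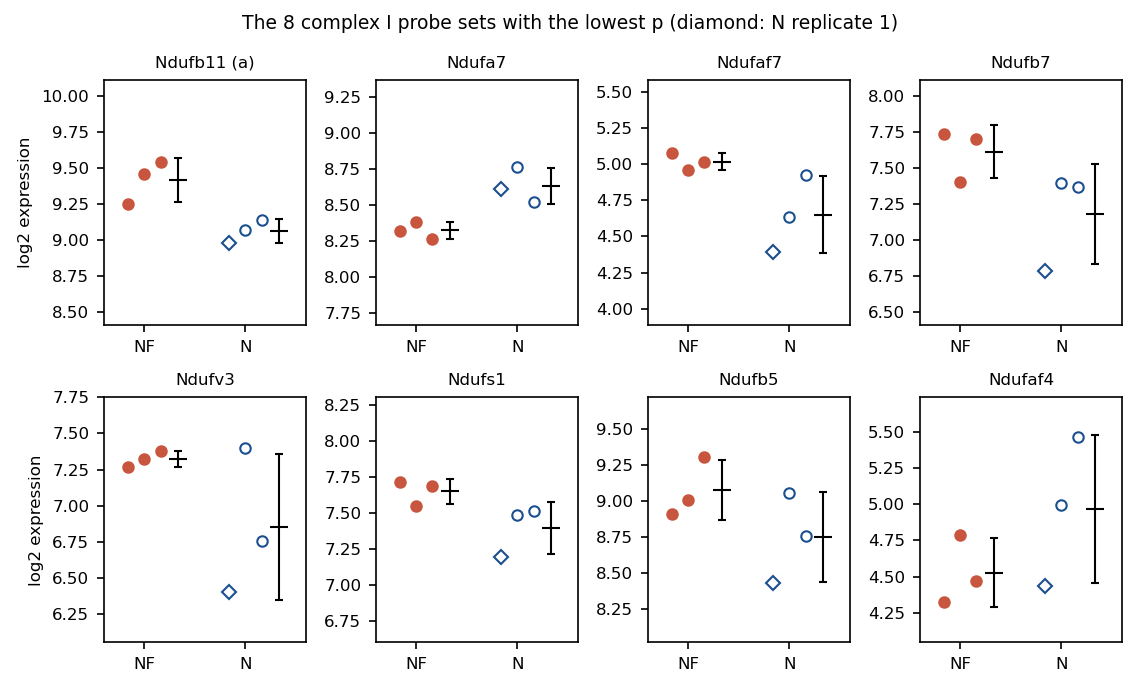
Log2 expression (vertical axis) of the 8 member probe sets with the lowest p, with the 3 NF arrays left (filled) and the 3 N arrays right (open, the diamond being N replicate 1), beside the mean ± SD of each group. Groups do not overlap for Ndufb11, Ndufa7, Ndufaf7, Ndufb7 and Ndufs1, and N replicate 1 is the lowest N array in each panel but that of Ndufa7.

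Ndufab1, Ndufa4 and Ndufa4l2 are not subunits of complex I alone, and their mean levels in NF and N were close. Ndufab1, the mitochondrial acyl carrier protein, also works in fatty acid synthesis and in making iron-sulfur clusters. Its first probe set measured 8.07, 7.93 and 7.81 in NF, against 7.59, 7.80 and 8.21 in N, and its second 7.87, 7.90 and 7.65 in NF, against 7.14, 7.99 and 8.16 in N. In both, the NF arrays lay inside the N range, which N replicate 1 opened at the bottom. The changes were 0.07 and 0.04 with all arrays and -0.07 and -0.27 without N replicate 1 (limma adjusted p = 0.920 and 0.379). Ndufa4, first described in complex I and now placed in complex IV, had a change of 0.05 (limma adjusted p = 0.932), and 0.17 without N replicate 1. Its paralogue Ndufa4l2, known as a hypoxia-induced gene, was dim in every array, at 2.99, 3.50 and 3.24 in NF, against 3.14, 3.05 and 3.40 in N, with a change of 0.04, and 0.02 without N replicate 1.

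The assembly factors named Nduf, of which 6 of 8 were measured, held the most negative change of all members and 1 of the 3 at an unadjusted p under 0.05. Their median change was -0.02, or -0.14 without N replicate 1, and 0 passed the test. Ndufaf7, in human cells a methyltransferase needed for assembly of the complex, measured 5.08, 4.96 and 5.01 in NF, against 4.39, 4.63 and 4.93 in N. The NF arrays were close together and all above N, with N replicate 3 only just below them. The change was 0.37 ± 0.16 (SE, limma adjusted p = 0.371), and 0.24 without N replicate 1 (adjusted p = 0.450).

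Ndufaf3 and Ndufaf4 are known from human cells to act together in the assembly of the Q module. Ndufaf4 measured 4.32, 4.79 and 4.47 in NF, against 4.44, 4.998 and 5.46 in N. N replicates 2 and 3 were above every NF array, and N replicate 1 was inside the NF range. The change was -0.44 ± 0.26 (SE, limma adjusted p = 0.543) with all arrays and -0.70 ± 0.19 without N replicate 1, with an adjusted p of 0.068, the lowest of any member in that fit. Ndufaf3 measured 4.70, 5.01 and 4.73 in NF, against 4.02, 5.20 and 5.07 in N. Again N replicates 2 and 3 were above every NF array, while N replicate 1 was below them all. The change was 0.05 ± 0.30 (SE, limma adjusted p = 0.966) with all arrays and -0.33 without N replicate 1 (adjusted p = 0.278).

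The other 3 assembly factors had groups that overlapped. Ndufaf6, at 3.66, 3.79 and 3.60 in NF, against 4.13, 3.65 and 4.01 in N, had a change of -0.25 (limma adjusted p = 0.573), and -0.15 without N replicate 1. N replicates 1 and 3 were above all NF arrays, but the probe set was dim, so this value rests on a weak signal. Ndufaf2, a paralogue of the subunit Ndufa12 that takes part in its insertion, had a change of 0.05, and Ndufaf5, which in human cells hydroxylates NDUFS7 and was dim as well, of -0.09. Without N replicate 1 these changes were 0.14 and -0.12.

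Over all members, N replicate 1 set much of the spread. The mean deviation of the 45 probe sets from their own means was -0.03, 0.06 and 0.06 in the NF arrays, against -0.10, 0.02 and -0.003 in the N arrays. Against the mean of the other N arrays, N replicate 1 ran from -1.12 for Ndufaf3 to 0.84 for Ndufa1, with a median of -0.09, so its values were not simply shifted but spread to both sides. This range did not set it apart, as N replicate 2 ran from -0.41 to 1.02 and N replicate 3 from -1.14 to 0.77. The SD of the members' deviations was 0.37 in N replicate 1, against 0.11 to 0.25 in the other arrays. Without it, 0 of 45 members passed the test (5.33% of all probe sets did), 6 (13.3%) had an unadjusted p under 0.05, against 17.2%, and 44 (97.8%) had an interval within 2-fold, against 92.7%. The 6 were Ndufa3, Ndufa7, Ndufaf3, Ndufaf4 and both probe sets of Ndufb11. The sign of the change turned for 12 of 45 probe sets, those of Ndufa1, Ndufa6, Ndufa8, Ndufa10, Ndufb3, Ndufc1, Ndufs4, Ndufv1 and Ndufaf3, both of Ndufab1 and 1 of Ndufa11.

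**Figure D3:**
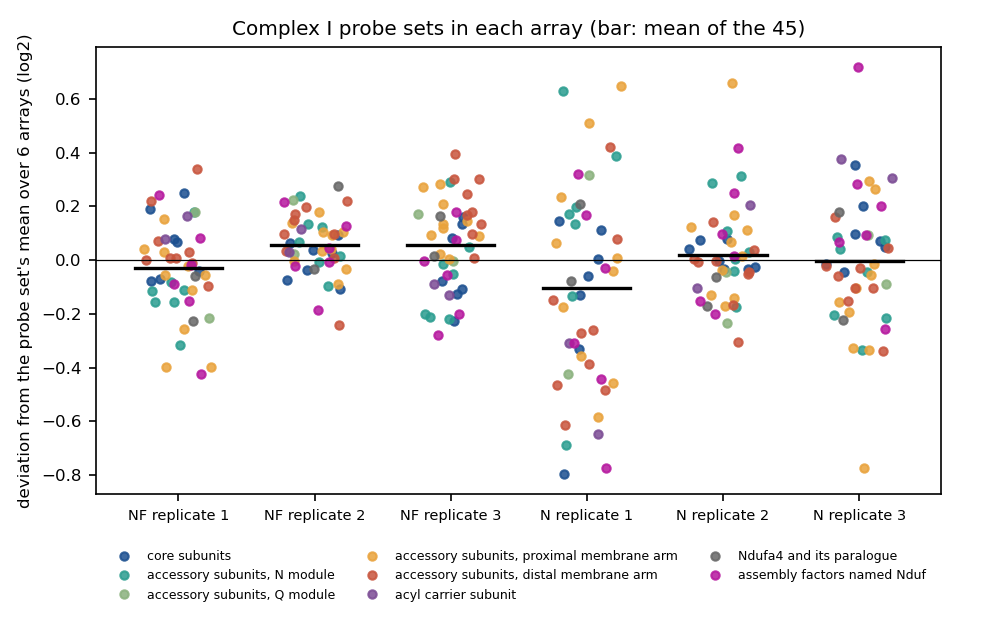
Each point is a member probe set, plotted as its deviation in log2 units from its own mean over the 6 arrays (vertical axis) in each array (horizontal axis), coloured by role, with a bar at the mean of the 45. The points of N replicate 1 spread widest, and the bars of all arrays lie between -0.10 and 0.06.

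**Figure D4:**
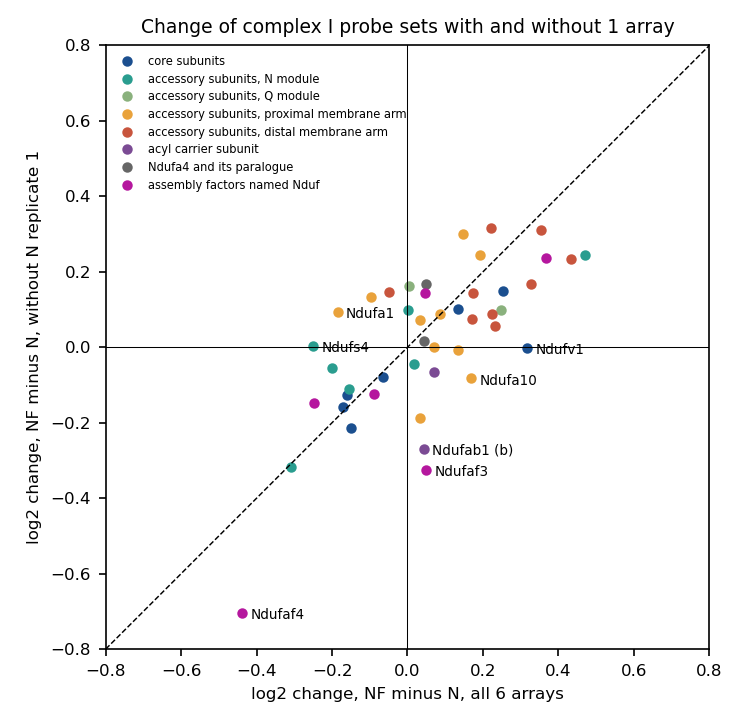
Log2 change (NF minus N) of each member probe set with all 6 arrays (horizontal axis) and without N replicate 1 (vertical axis), coloured by role, with a dashed line of equality. Ndufaf4 moves to -0.70, Ndufv1 and Ndufs4 move to about 0, and the 9 probe sets of the distal membrane arm all lie above 0 on the vertical axis.

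In the lists for the rest of the respiratory chain and its regulators, 0 genes passed the test in either direction with all arrays. Of 12 other complex I assembly factors 10 were measured, with a median change of 0.02 (-0.12 without N replicate 1). Tmem126a, a factor for the membrane arm, had the lowest p, at 7.48, 7.94 and 7.80 in NF, against 9.12, 8.22 and 8.37 in N, and all NF arrays were below all N arrays. Its change was -0.83 ± 0.25 (SE, limma adjusted p = 0.162), and -0.56 without N replicate 1. Tmem70, better known for complex V, had a change of -0.35, and -0.21 without that array.

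Complex II, which also feeds electrons to ubiquinone, had 8 of 8 genes measured and a median of 0.21 (0.05 without N replicate 1). Sdhaf3, an assembly factor, had a change of -0.79 ± 0.20 (SE, limma adjusted p = 0.107), and Sdhaf1 of 0.42, or -0.65 and 0.25 without that array. Of complex III 11 of 12 genes were measured, with a median of 0.03 (-0.09 without N replicate 1). There Uqcrq, a small subunit, had a change of -0.57 ± 0.14 (SE, limma adjusted p = 0.103), while Cycs, cytochrome c, was dim with a change of -0.50, or -0.58 and -0.28 without that array. Of complex IV 15 of 16 were measured, with a median of -0.02 (0.01 without N replicate 1), and Cox6a2, the muscle form of a regulatory subunit, had a change of -1.10 ± 0.34 (SE, limma adjusted p = 0.177), beside 0.46 for Cox6b1, or -0.95 and 0.16 without that array. The 0 calls of these lists stood beside 2.45% of all probe sets tested. At an unadjusted p under 0.05 there was 1 gene each for the other assembly factors, complex II and complex IV, and 2 for complex III. Of all probe sets, 13.4% were at that bound. With the methods' t-test the counts were 0, 2, 0 and 1 in the same order, and no share of all probe sets was counted for it.

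Of complex V, the ATP synthase, 13 of 18 genes were measured, with a median of 0.07 (0.10 without N replicate 1), and the lowest p was that of Atp5f1a (0.35, adjusted p = 0.577 in limma), followed by Atp5po (0.18), or 0.11 and 0.10 without that array. The list of other enzymes that reduce ubiquinone also held Etfa and Etfb, which pass electrons to Etfdh and do not reduce ubiquinone themselves. With 5 of 8 measured, the list had a median of 0.01 with and without that array. Etfdh, which takes electrons from fatty acid oxidation, had a change of 0.36 (limma adjusted p = 0.443), beside 0.19 for Etfb, or 0.21 and -0.01 without N replicate 1. Regulators of mitochondrial gene expression, with 12 of 12 measured, had a median of -0.15 (-0.21 without N replicate 1). Ppargc1a, the coactivator PGC-1α, was dim, at 2.20, 2.37 and 2.03 in NF, against 2.63, 2.43 and 2.37 in N, and Esrra, the receptor ERRα, had a change of -0.28, and -0.36 without that array. In these 3 lists 0 genes had an unadjusted p under 0.05, also with the methods' t-test. With all arrays in limma, 13.4% of all probe sets had one. Other fits gave more, such as 4 of the 12 regulators after quantile normalization, where no share of all probe sets was counted. In the fit without N replicate 1, 3 regulators and 3 complex V genes were under that bound, against 17.2% of all probe sets. Without N replicate 1, 2 genes of these lists passed the test, while 5.33% of all probe sets did. Atp5mg, a subunit of the ATP synthase, had a change of 0.60 (limma adjusted p = 0.048) in that fit and 0.31 with all arrays, and Tfb1m, a methyltransferase of mitochondrial ribosomal RNA, a change of -1.02 (limma adjusted p = 0.023) in that fit and -0.62 with all arrays.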

How the data were processed

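RNA of NIH3T3 cells (3 NF and 3 N arrays) was used. The study's other samples were left out. The deposited log2 values were made by the authors with RMA (package oligo), which corrects background, equalizes array distributions and summarizes probes. Its version and the genome build are not given in the sources used here, nor which arrays were normalized together. The authors discarded probe sets without an Entrez gene. Of 22035 probe sets, 18197 with 1 gene symbol in the platform annotation were tested, 1260 with several and 2578 not listed were left out. The symbol rule that gives the members, and the lists, were chosen with earlier results of these data known.

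NF was compared with N by lmFit and eBayes in R 4.3.3 with limma 3.58.1 (prior degrees of freedom 4.00), adjusted after Benjamini and Hochberg over 18197 probe sets, with a threshold of 0.05. Intervals are 95% intervals of the moderated statistic. In the lists, a gene with several probe sets stands at its lowest p. Array number limits the precision. Alternatives were a replicate block, quantile normalization, median centring, leaving out dim probe sets, trend and robust estimation, the methods' t-test, every probe set of the table, 1 probe set a gene, leaving out Ndufa4, Ndufa4l2 and Ndufab1, and leaving out each array. Promoters were searched in Python 3.11.15 with pandas 2.3.3, and figures were drawn with matplotlib 3.10.9. Named members were those past the test, the 8 with the lowest p, the 4 largest changes each way, core subunits, Ndufab1, Ndufa4, Ndufa4l2, assembly factors and genes with several probe sets, and of each other list those past the test or up to 2 with the lowest p. Other members, Atp5mg, Tfb1m and Esrra were named after their values were seen.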

Additional observations from a re-analysis of the deposited data

How the results depend on the processing

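The count of members past the test was 0 in both directions under all 13 alternative fits, with 1 probe set a gene and without Ndufa4, Ndufa4l2 and Ndufab1. The replicate numbers did not pair the arrays: deviations of NF and N arrays of the same number correlated at -0.04, -0.02 and -0.03 across probe sets, and with the replicate block 0 members passed, with 1 at an unadjusted p under 0.05. That last count was 3 with all arrays and 0 without dim probe sets, 1 with trend and robust estimation, 6 with the methods' t-test and between 0 (without NF replicate 3) and 6 (without N replicate 1) when an array was left out. The share of all probe sets at that bound was 13.4% with all arrays and 17.2% without N replicate 1. It was not counted for the other fits, so their counts have no share to stand beside. The members' median change of 0.05 lay between 0.0574 and 0.1148 when an array was left out, the highest value being that without N replicate 2, and was 0.0123 after quantile normalization and 0.0097 after centring. Without N replicate 1 the change turned to -0.0020 for Ndufv1 and 0.0037 for Ndufs4 and became -0.27 for a probe set of Ndufab1 and -0.33 for Ndufaf3. When an array was left out, Ndufv1 ran from -0.0020 to 0.5720 and Ndufs4 from -0.4202 to 0.0037, the far ends being without N replicate 3. When an array was left out, the complex V genes that passed the test with NF higher numbered 0 to 1. The regulators of mitochondrial gene expression that passed it with NF lower also numbered 0 to 1. The 1 in each case was without N replicate 1, where 5.33% of all probe sets passed. The cause was not tested. With 3 arrays a group and a median SE of 0.16, only 27 of 45 members had an interval within 1.5-fold. RefSeq lists near copies (Ndufa11b, Ndufa12-ps, Ndufab1-ps, Ndufs5-ps and Ndufs6b) that probes of Ndufa11, Ndufa12, Ndufab1, Ndufs5 and Ndufs6 might also detect.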

Other observations

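Another 3 probe sets were paired with an Nduf symbol and a second symbol at once, and were therefore no members. The probe set of Ndufs5 and its pseudogene Ndufs5-ps measured 6.93, 6.93 and 6.999 in NF, against 6.91, 6.87 and 6.84 in N. All NF arrays were above all N arrays by a narrow margin, with a log2 change of 0.07 and an adjusted p of 0.834 in a limma fit of every probe set of the table. The probe sets shared by Ndufb4 and Ndufb4b had changes of -0.13 and -0.12 (limma adjusted p = 0.819 and 0.806). In both, N replicate 1 was the highest array, and the groups overlapped.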
